A study of Drosophila melanogaster with 2 samples.

Results

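The peaks described are those of an H2.0 ChIP-seq experiment that lie at the starts of long non-coding RNA (lncRNA) and antisense RNA (asRNA) genes. A peak belonged to the set when its summit, the position of highest signal, lay within 1000 bp of an annotated lncRNA or asRNA transcript start and nearer to it than to any protein-coding transcript start. Of the 4565 peaks on the assembled chromosome arms in the thresholded list of both replicates together, 186 (4.07%) met this rule, and a limit of 500 bp would have kept 120. The set held 152 peaks at lncRNA starts and 34 at asRNA starts, and they fell at 173 of the 2490 lncRNA and asRNA genes on the arms. A further 2388 peaks (52.3%) lay within 1000 bp of a protein-coding start that was nearer, or as near as the non-coding one in 6 cases, and 1991 (43.6%) lay away from both kinds of start.

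The experiment immunoprecipitated chromatin from whole Drosophila melanogaster embryos of strain H2.0-GFP, whose H2.0 protein is tagged with enhanced green fluorescent protein, and used an antibody against GFP. Embryos were 0 to 24 h old, sonicated fragments were 200 to 800 bp long, and the only group was made up of 2 biological replicates. Peak lists on build dm6 were used, with no reads and no control library, so depth is unknown and binding of H2.0 at the peaks was not shown. Whole embryos mix cell types, the driver of the fusion gene is not stated in the labels, and the lists hold no RNA levels. All group shares below are shares of peaks or of genes, and their 95% exact binomial intervals cover counting error only. No test compared the groups, since peaks of the same libraries are not replicates.

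Long non-coding RNAs are transcripts without a recognised protein product, and many fly loci of this class have no known function. Antisense RNAs are transcribed from the strand opposite to another gene and can share a start region with it. Some long non-coding transcripts are known as precursors, since microRNAs or small nucleolar RNAs are cut out of them. H2.0 is a homeodomain protein expressed in gut muscle of the embryo, and homeodomains bind short A and T rich DNA sequences.

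The windows that reach 50 bases to each side of the summits of strong members show the DNA on which the signal was centred. Each window comes from the RefSeq Release 6 genome sequence of the fly, the assembly of build dm6, and is written 5′ to 3′ on the strand of the non-coding gene. Capitals mark the TATA box TATAAA, the homeodomain core TAATTA and Mef2 sites on either strand. The first 4 have none of these, and the windows shown are not the full order of strength. The strongest member, at asRNA:CR45928, had a TATA box, and the one at lncRNA:CR44339, the third by signal, had a homeodomain core and a Mef2 site, and neither window is shown. The next 3 hold a TATA box, and they are followed by 3 windows with a homeodomain core or a Mef2 site. The windows lie at chr3R:16222446-16222546 (plus strand, lncRNA:CR45643), chrX:12751389-12751489 and chrX:12752317-12752417 (plus strand, upstream and downstream of the lncRNA:CR44619 start) and chr3R:29214399-29214499 (plus strand, lncRNA:CR31044). The TATA box windows lie at chr3R:17704360-17704460 (plus strand, lncRNA:CR46035), chrX:7706964-7707064 (plus strand, lncRNA:CR43287) and chr3R:17700547-17700647 (plus strand, lncRNA:CR46036). The other 3 lie at chr2L:9568677-9568777 (minus strand, lncRNA:CR44149), chr3L:11405995-11406095 (plus strand, lncRNA:CR44363) and chr2L:15912093-15912193 (plus strand, lncRNA:CR44868).
lncRNA:CR45643: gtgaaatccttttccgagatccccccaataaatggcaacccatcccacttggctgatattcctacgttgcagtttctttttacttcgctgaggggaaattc
lncRNA:CR44619 upstream: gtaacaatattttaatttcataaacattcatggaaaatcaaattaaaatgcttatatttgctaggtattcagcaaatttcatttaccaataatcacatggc
lncRNA:CR44619 downstream: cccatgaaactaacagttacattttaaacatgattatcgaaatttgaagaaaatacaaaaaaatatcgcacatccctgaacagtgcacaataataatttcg
lncRNA:CR31044: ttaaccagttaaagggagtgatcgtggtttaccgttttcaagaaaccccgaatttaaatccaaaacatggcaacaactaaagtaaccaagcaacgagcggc
lncRNA:CR46035: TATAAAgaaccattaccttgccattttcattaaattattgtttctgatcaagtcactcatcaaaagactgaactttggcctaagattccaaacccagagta
lncRNA:CR43287: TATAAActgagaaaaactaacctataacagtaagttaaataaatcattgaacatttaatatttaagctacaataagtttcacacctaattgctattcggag
lncRNA:CR46036: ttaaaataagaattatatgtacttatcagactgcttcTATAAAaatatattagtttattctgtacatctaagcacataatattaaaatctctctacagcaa
lncRNA:CR44149: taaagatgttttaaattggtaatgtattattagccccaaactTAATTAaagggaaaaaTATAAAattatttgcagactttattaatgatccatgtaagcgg
lncRNA:CR44363: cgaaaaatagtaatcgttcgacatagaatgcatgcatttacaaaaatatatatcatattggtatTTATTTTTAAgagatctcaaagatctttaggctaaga
lncRNA:CR44868: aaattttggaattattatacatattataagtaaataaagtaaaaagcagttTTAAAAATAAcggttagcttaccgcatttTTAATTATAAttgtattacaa
Of their bases, 45.5% were G or C at lncRNA:CR45643 and 41.6% at lncRNA:CR31044. The other 8 windows had at most 33.7%, the value at lncRNA:CR46035, and as little as 18.8% at lncRNA:CR44868. In the window of lncRNA:CR44868 a Mef2 site overlaps the homeodomain core, and in that of lncRNA:CR44149 the homeodomain core and a TATA box stand side by side. A match is a description of the letters and does not show that a factor bound there.

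The signal of the peaks at non-coding starts covered most of the range of the list. The deposited signal value, the peak caller's enrichment signal, had a median of 95.8 with quartiles of 64.6 and 182, and ran between 6.42 and 1206. The median was 102 at protein-coding starts, 88.2 away from both and 94.6 over all peaks on the arms. Ranked within the list, the members had a median percentile of 50.7, against 54.7 for the peaks at protein-coding starts. With the list cut into 4 classes of equal size by signal, 56 members (30.1%, interval 23.6 to 37.2) were in the highest class and 52 (28.0%, interval 21.6 to 35.0) in the lowest, and 38 and 40 in the classes between. Both intervals hold the equal share that each class has of the whole list, so an excess of members at either end was not shown. Of the peaks at protein-coding starts, 30.4% were in the highest class and 21.2% in the lowest. Of those away from both, 18.1% were in the highest class and 29.2% in the lowest. Peaks at lncRNA starts had a median of 107 and those at asRNA starts of 82.3. Among the 100 highest peaks of the list, 8 were members and 76 lay at protein-coding starts.

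**Figure D1:**
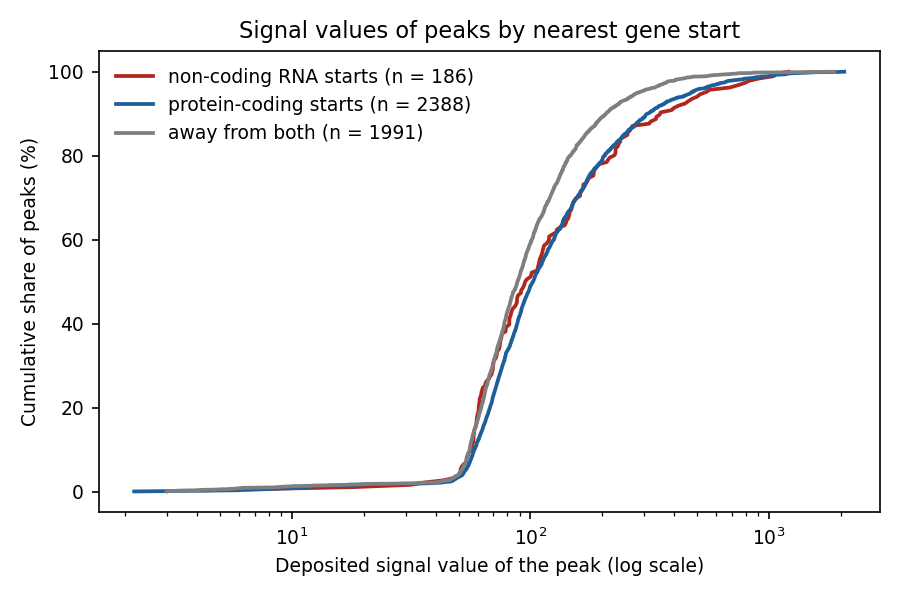
The cumulative share of peaks in percent is plotted against the deposited signal value on a log scale, with 1 line for the 186 peaks at non-coding RNA starts, 1 for the 2388 at protein-coding starts and 1 for the 1991 away from both. The line of the non-coding starts runs along that of the peaks away from both at low values and along that of the protein-coding starts at high values.

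The strongest member lay 76 bp downstream of the start of asRNA:CR45928 on arm 2R, in an intron of ytr, a gene on the opposite strand. Its signal was 689 in replicate 1 and 517 in replicate 2, each in its own ranked list, and 1206 in the list of both together, where it ranked 15. The start of eIF6, which encodes a factor of large ribosomal subunit assembly, stood 105 bp from this summit and head to head with the antisense gene. The next was the summit 899 bp upstream of lncRNA:CR45643, with 514 in replicate 1, 551 in replicate 2 and 1060 in the list of both. Its nearest protein-coding start, that of tara, was 3155 bp away. The summit 173 bp upstream of lncRNA:CR44339 had 539 in replicate 1, 503 in replicate 2 and 1042 in the list of both. This site lay 4200 bp from the start of the Polycomb group gene Psc. These 3 peaks stood in the replicate lists of both embryo samples, which was a condition for naming them. The log2 ratio of replicate 1 over replicate 2 was 0.41 at asRNA:CR45928, -0.10 at lncRNA:CR45643 and 0.098 at lncRNA:CR44339.

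Farther down the order, the summit 113 bp upstream of lncRNA:CR31044 had 402 in replicate 1 and 388 in replicate 2. A pair of strong peaks lay 3813 bp apart in an intron of osa, which encodes a subunit of the Brahma chromatin remodelling complex, at lncRNA genes on the opposite strand. The peak at lncRNA:CR46035 had 392 in replicate 1 and 362 in replicate 2, and that at lncRNA:CR46036 had 315 and 235. On the X chromosome, the summit 761 bp upstream of lncRNA:CR43287 had 376 in replicate 1 and 324 in replicate 2, inside the forkhead gene CHES-1-like. The summit 154 bp upstream of the nearest lncRNA:CR44810 start, 4526 bp from slbo, a C/EBP gene known from border cell migration, had 277 and 284. The summit of asRNA:CR44512 lay 878 bp upstream of its start in Zw, the gene of glucose-6-phosphate dehydrogenase, and had 244 in replicate 1 and 243 in replicate 2. The peak at lncRNA:CR44209, 156 bp from the start of the cytochrome gene Cyt-b5, had 229 and 240. Over the 15 strongest members that were in both replicate lists, replicate 1 had the higher value in 11 and replicate 2 in 4, and the log2 ratio of replicate 1 over replicate 2 ran between -0.11 and 0.47. The lists are not scaled to each other, so the ratio carries any common factor between them. The 15 comprised 13 peaks of lncRNA genes, 9 summits upstream of their start, and 3 with a protein-coding start within 1000 bp.

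At the low end, the weakest member lay 290 bp inside lncRNA:CR45542 on the X chromosome with a signal of 6.42. The ranked list of replicate 2 had a peak of 8.60 there, and that of replicate 1 had none within 200 bp. The summit 834 bp from the start of lncRNA:CR44739 had 10.4 in replicate 1, 2.17 in replicate 2 and 18.1 in the list of both, and the summit 6 bp from that of lncRNA:CR44276 had 9.61, 26.8 and 31.4. None of the 3 was in both replicate lists.

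The set was split between peaks that stood in both replicates' own thresholded lists and peaks that did not. A summit lay within 200 bp in both lists for 87 of the 186 members (46.8%, interval 39.4 to 54.2), against 53.4% (interval 51.4 to 55.4) at protein-coding starts, and the same share over all peaks on the arms was 49.2%. Replicate 1's list alone had 29 members, replicate 2's alone had 21, and 49 (26.3%, interval 20.2 to 33.3) were in neither, against 17.5% (interval 16 to 19.1) at protein-coding starts and 21.0% over all peaks. For the share in neither list, the interval of the members did not overlap that of protein-coding starts. It held the 21.0% over all peaks, and it overlapped that of the peaks away from both at 24.7% (interval 22.8 to 26.6). All these peaks come from the same pair of libraries, so the intervals do not serve as a test between groups. Members in both lists had a median signal of 187, and the other 99 had a median of 67.0. A peak absent from a replicate's list did not pass the threshold there, which is not absence of signal, and the irreproducible discovery rate (IDR) of the list of both replicates was not taken as agreement between them. In the ranked lists, which carry peaks below the threshold too, 181 members (97.3%) had a peak in both replicates. That is near the 97.8% over all peaks, with 98.1% at protein-coding starts and 97.5% away from both. These lists are long, with 98361 peaks on the arms in replicate 1 and 99419 in replicate 2.

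The conservative thresholded list held a summit for 157 members (84.4%), and for 84.7% of all peaks on the arms. The deposited q-value was below 0.05 for 124 members (66.7%), and for 69.4% of all peaks on the arms. Both shares were near those of the whole list. Across the 181 members with a peak in both ranked lists, Spearman's rho between the replicates was 0.80, against 0.76 across 2343 peaks at protein-coding starts, and these peaks share the same pair of libraries. The log2 ratio had an SD of 0.71 at members and 0.64 at protein-coding starts. It passed 2-fold towards replicate 1 in 12 members and towards replicate 2 in 5. The farthest was asRNA:CR46145 in the kinase gene FER, with 53.7 in replicate 1 and 2.05 in replicate 2. The next was asRNA:CR45016 in Cap-H2, a condensin subunit gene, with 6.95 in replicate 1 and 33.4 in replicate 2, and this peak was in neither replicate list.

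**Figure D2:**
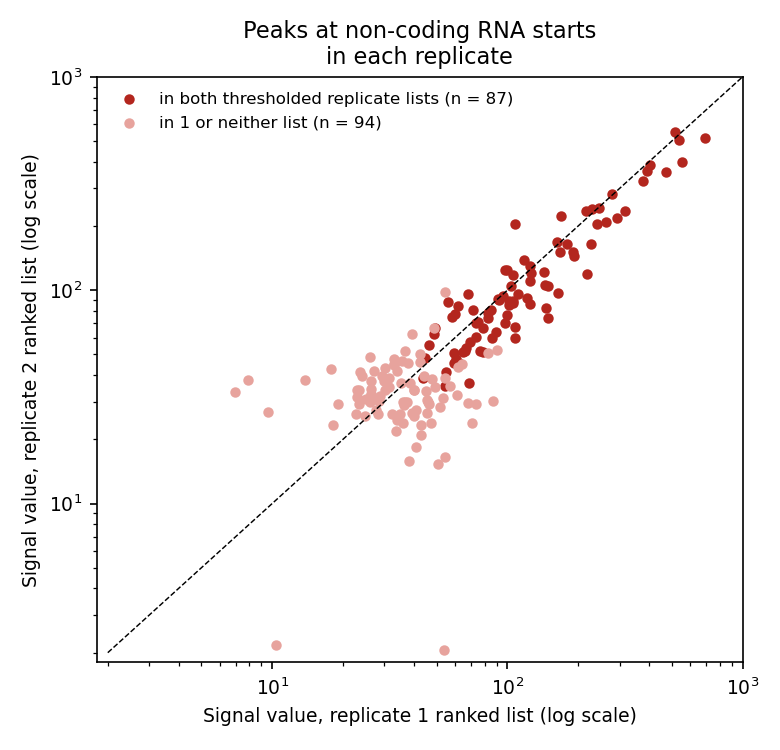
Signal values of the 181 peaks at non-coding RNA starts with a peak in both ranked lists are plotted as replicate 1 on the x axis and replicate 2 on the y axis, both on log scales, with the dashed line marking equal values. The 87 peaks in both thresholded lists (dark points) lie near the line at high values, and the other 94 (light points) spread more widely at low values.

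The ranked list shows how many candidate peaks stood behind the set. It had 4417 peaks on the arms that met the same position rule, and 186 of them (4.21%, interval 3.64 to 4.85) were in the thresholded list. The share was 7.60% (interval 7.31 to 7.90) at protein-coding starts and 2.01% away from both, and 3.39% over all ranked peaks on the arms. The interval at non-coding starts lay below that at protein-coding starts and above that of 1.93 to 2.10 away from both. Counted by gene, 173 of 2490 lncRNA and asRNA genes (6.95%, interval 5.98 to 8.02) had a member peak, against 2070 of 13968 protein-coding genes (14.8%, interval 14.2 to 15.4) with a peak at their start. The share was 7.05% for the 1987 lncRNA genes and 6.56% for the 503 asRNA genes.

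Summits lay farther from non-coding starts than from protein-coding ones. The median distance was 392.5 bp, against 143 bp at protein-coding starts. Within 100 bp of the start lay 30 members (16.1%, interval 11.2 to 22.2), against 874 peaks (36.6%, interval 34.7 to 38.6) at protein-coding starts. Over 500 bp away lay 66 members (35.5%), against 17.9% of the peaks at protein-coding starts. Per 100 bp of distance, the set had 30 peaks within the first 100 bp and 13.2 beyond 500 bp, and the peaks at protein-coding starts had 874 and 85.4. Upstream of or at the start lay 97 members (52.2%, interval 44.7 to 59.5), against 1840 (77.1%, interval 75.3 to 78.7) of the peaks at protein-coding starts. By kind of gene, 25 of 34 asRNA summits (73.5%, interval 55.6 to 87.1) and 72 of 152 lncRNA summits (47.4%, interval 39.2 to 55.6) were upstream or at the start. The intervals all but touch at 55.6, the asRNA peaks are few, and a difference between the kinds was not tested. Upstream members had a median signal of 111 and downstream members of 81.6. How exactly these starts are annotated was not examined here.

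**Figure D3:**
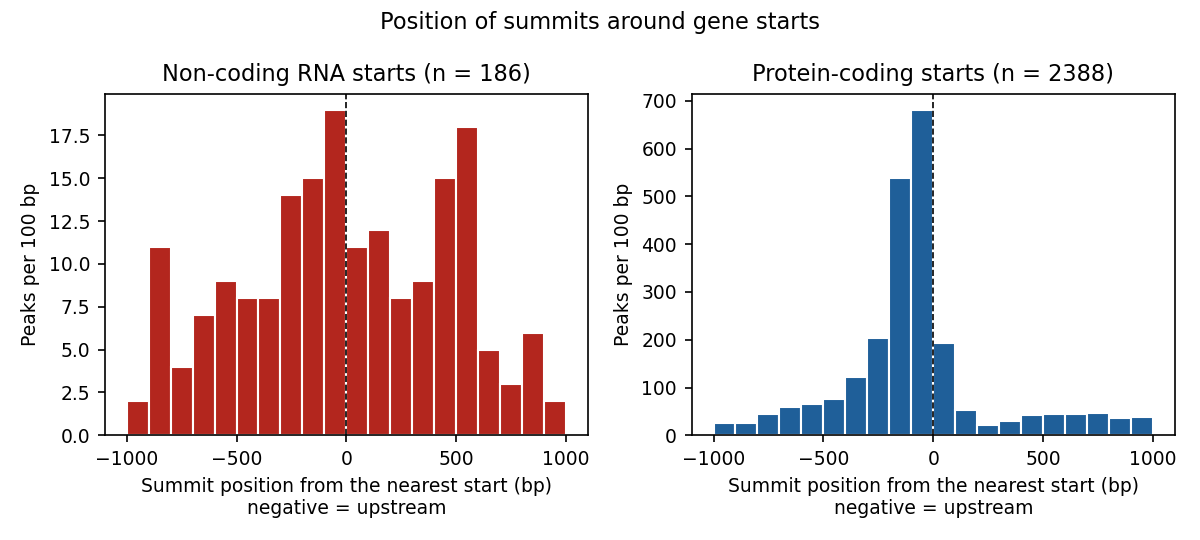
Peaks per bin of 100 bp are plotted against the position of the summit from the nearest start in bp, negative values being upstream, for the 186 peaks at non-coding RNA starts (left) and the 2388 at protein-coding starts (right), each with a y axis of its own. The protein-coding panel has 1 sharp mode just upstream of the start, and the non-coding panel is spread over both sides.

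The distance to protein-coding starts is limited by the rule, which keeps a summit only where the non-coding start is nearer. Without that condition, 39.9% of 298 summits had a protein-coding start within 500 bp. Among the members, the median distance to the nearest protein-coding start was 2606.5 bp, and for 54 members (29.0%) it was over 5000 bp. A protein-coding start stood within 500 bp of 18 members (9.68%, interval 5.84 to 14.9), which were 10 of 34 asRNA peaks (29.4%, interval 15.1 to 47.5) and 8 of 152 lncRNA peaks (5.26%, interval 2.30 to 10.1). Within 1000 bp there were 40, of which 22 were head to head with the protein-coding gene, 12 had overlapping starts and 6 ran on the same strand. These 40 had a median signal of 82.3, and the other 146 had a median of 104. Outside protein-coding genes lay 121 members (65.1%), and 58 (31.2%) lay in an intron of one, 3 in a 5′ UTR, 2 in a coding exon and 2 in a 3′ UTR. At protein-coding starts 49.7% of summits were outside protein-coding genes. Of the 65 members inside a protein-coding gene, 52 were in hosts on the opposite strand only. With respect to the non-coding gene itself, 63 summits were in an exon, 15 in an intron and 108 outside.

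Neighbouring genes of the members were taken at any distance, but the genes with peaks at protein-coding starts had a summit within 1000 bp. Their shares are therefore not of like measure. The nearest protein-coding genes of the members were 168 in number. They held 1 cytosolic ribosomal protein gene (0.595%), RpLP2, which was 2083 bp from a peak of asRNA:CR44375. The 2070 genes with peaks at protein-coding starts held 56 (2.71%). The genes near members included no mitochondrial ribosomal protein gene and no heat shock gene. For each, 0 of 168 allows up to 1.79% by 3 counts and 2.17% by the exact interval. The protein-coding start peaks had 13 of the mitochondrial genes (0.628%) and 7 heat shock genes (0.338%). Both shares are within those limits, so a lack of these genes near members was not shown. Shares of these groups over all protein-coding genes are not given here. Of the homeobox and T-box list there were 2 (1.19%), the pair-rule gene ftz at 28911 bp from the summit and the T-box gene mid at 22349 bp. The genes of protein-coding start peaks held 3 of that list (0.145%), Dfd, org-1 and tin.

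Precursors of microRNAs were among the genes of the set with a known product. Of 37 lncRNA and asRNA genes whose span holds a microRNA hairpin gene on the same strand, 6 had a member peak (16.2%, interval 6.19 to 32.0), against 6.95% of all lncRNA and asRNA genes, a share inside that interval. The strongest was that of lncRNA:CR31044, whose span holds mir-279 and mir-996, microRNAs known from nervous system development, with 402 in replicate 1 and 388 in replicate 2. The host of mir-282, lncRNA:CR43626, had 108 in replicate 1 and 59.7 in replicate 2 at a summit 323 bp upstream of its nearest start. The host of mir-8, a fly relative of the vertebrate miR-200 family, is lncRNA:CR43650 and had a pair of peaks. The peak 95 bp upstream of its inner start had 73.3 in replicate 1 and 60.2 in replicate 2, and the peak 705 bp upstream of its outer start had 44.9 and 48.3. The host of mir-375, lncRNA:CR45345, had a peak 551 bp upstream with 55.9 and 88.4, and a second 943 bp downstream with 36.9 and 51.8. All of these except the downstream peak of lncRNA:CR45345 stood in both replicate lists.

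The host of bantam, a microRNA known to promote growth and to block cell death, is lncRNA:CR43334. Its peak lay 524 bp upstream of the start with 33.1 in replicate 1 and 47.7 in replicate 2, and it was in neither replicate list. A second summit in the span of this gene was 1001 bp from a start, just beyond the limit, with a signal of 104.5. The host of mir-14, which is known to restrain cell death, is lncRNA:CR43651 and had 13.7 in replicate 1 and 38.1 in replicate 2 at 881 bp downstream, with a q-value of 0.238. The other 31 host genes had none, among them the precursors of let-7 and of the bithorax complex microRNAs, lncRNA:let7C, lncRNA:iab4 and lncRNA:iab8. The summits nearest to the starts of these 3 genes were 12386, 6938 and 8214 bp away. These distances do not describe the rest of each gene. The span of lncRNA:iab8 holds mir-iab-8, and a summit with a signal of 60.2 lay 834 bp from that hairpin gene.

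Small nucleolar RNAs guide the chemical modification of ribosomal RNA, and 2 of the 10 genes whose span holds one had a member peak. This is 20.0% with an interval of 2.52 to 55.6, which holds the 6.95% of all lncRNA and asRNA genes. Uhg4, a host gene of 7 of them, had 108 in replicate 1 and 204 in replicate 2 at 63 bp upstream of its start, and stood head to head with Boot at 552 bp. The other, lncRNA:CR31647, had 28.6 and 30.4 at 13 bp upstream and was in neither replicate list. A summit of 89.5 also lay 226 bp from the start of Uhg8, but a protein-coding start was nearer. Of 30 named non-coding RNAs that were looked up, Uhg4 and lncRNA:TS2 had a member peak, which is 6.67% and near the 6.95% of all lncRNA and asRNA genes. The list of 30 also includes 7SL, RNase P and RNase MRP RNA genes, so it is not made up of lncRNA and asRNA genes only. The peak of lncRNA:TS2 had 53.4 in replicate 1 and 31.4 in replicate 2. The dosage compensation RNAs lncRNA:roX1 and lncRNA:roX2 had none, with the nearest summits 5954 and 1360 bp from their starts. The heat shock RNA gene lncRNA:Hsromega, the bithorax complex RNA gene lncRNA:bxd and the piRNA cluster lncRNA:flam had none either, although a ranked peak 168 bp from the start of lncRNA:Hsromega passed the score minimum and was left out of the thresholded list.

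Several genes had more than 1 member peak. There were 11 of them among the 173, and 2 had 3 peaks each. At lncRNA:CR44619 on the X chromosome the summits lay 882 and 428 bp upstream and 500 bp downstream of the start. The upstream summit at 428 bp had 551 in replicate 1 and 399 in replicate 2, the downstream one had 471 and 358, and the outer one had 180 and 164. All 3 were in both replicate lists, and the inner 2 were among the 15 strongest members. The upstream pair lies inside lncRNA:Vinr, which runs on the same strand and ends beyond the start of lncRNA:CR44619. At lncRNA:CR44366 on arm 2R the summit 363 bp upstream had 97.9 in replicate 1 and 125 in replicate 2, the one 402 bp downstream had 67.9 and 96.4, and the one 813 bp upstream had 42.5 and 50.4. In contrast to lncRNA:CR44619, where replicate 1 was higher at each summit, replicate 2 was higher at all 3 summits here. The summit 813 bp upstream was in replicate 2's thresholded list but not in that of replicate 1. It lies inside lncRNA:CR44365, which runs on the same strand.

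The remaining 9 genes had 2 peaks each. The peaks of lncRNA:CR42794 had 418 and 78.7 in the list of both replicates, and those of lncRNA:CR45251 had 264 and 234. A start of lncRNA:CR44331, which lies in an intron of puc, the phosphatase gene of the Jun kinase pathway, had 145 at 91 bp upstream and 93.7 at 858 bp downstream. The pairs at asRNA:CR43469 and lncRNA:marge had 111 and 57.0, and 57.5 and 35.7. Peaks of different genes were also neighbours. The summits of lncRNA:CR44867 and lncRNA:CR44868, both in an intron of beat-Ib, were 863 bp apart with signals of 476 and 320, and those of lncRNA:CR45352 and lncRNA:CR31840 were 1813 bp apart with 227 and 390.

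**Figure D4:**
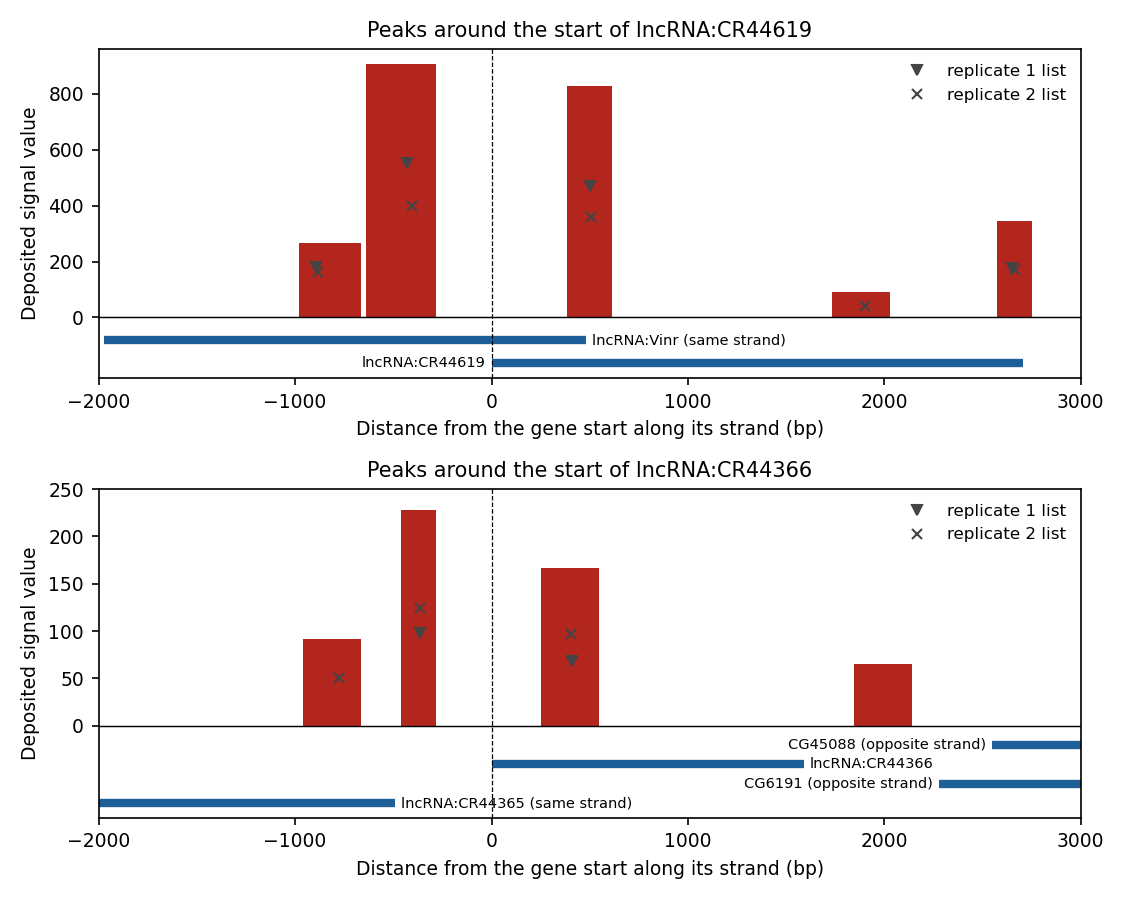
Bars give the deposited signal value of each peak of the list of both replicates over its interval, around the starts of lncRNA:CR44619 (top) and lncRNA:CR44366 (bottom), against the distance from the gene start in bp. Symbols give the signal in each replicate's own thresholded list, blue lines are annotated genes, and 3 member peaks stand within 1000 bp of each start.

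The sequence under the summits was A and T rich. The windows of 50 bp to each side of the members' summits had a median of 32.7% G and C bases, against 43.6% in windows 400 bp to either side. The peaks at protein-coding starts had 34.7% at the summit and 44.6% in the flanks. The difference between summit and flanks was thus of like size in both groups.

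The 16 motifs searched on both strands differed in how they were shared. The DNA replication-related element (DRE) TATCGATA, a core promoter sequence of broadly expressed fly genes, was in 0 of 186 summit windows, which allows a share of up to 1.61% by 3 counts of the total and of 1.96% by the exact interval, and in 0 of 372 flank windows, for which these limits are 0.806% and 0.987%. At protein-coding starts 71 of 2388 summit windows held it (2.97%, interval 2.33 to 3.74), and 1.71% of all summit windows did, a share that the exact interval of the members still holds. Among the peaks away from both it was also rare, in 7 of 1991 summit windows (0.352%). The sequence was also scarcer at annotated non-coding starts as such, with 0.680% of 2649 windows of the same length around lncRNA and asRNA transcript starts, against 4.48% of 19275 around protein-coding ones. The shorter BEAF-32 class sequence CGATA, which lies inside the DRE, was in 16 members (8.60%, interval 4.997 to 13.6), against 20.1% (interval 18.5 to 21.8) at protein-coding starts. It was in 10.2% of the peaks away from both, and in 11.5% and 23.6% of windows around all non-coding and protein-coding starts. The M1BP core GGTCACAC was in no member window, against 1.51% at protein-coding starts and 0.251% away from both, and the exact interval of the members holds both shares. It stood at 0.378% of all non-coding starts, against 4.67% of all protein-coding starts. Zelda CAGGTAG and Su(H) sites were in no member window and in 0.251% and 0.754% of those at protein-coding starts, so 0 of 186 leaves room for those shares.

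Other motifs had shares like those at protein-coding starts. The TATA box TATAAA was in 44 members (23.7%, interval 17.7 to 30.4), against 12.9% of their flanks (interval 9.67 to 16.7). At protein-coding starts it was in 20.6% of summit windows and 10.2% of flanks. The summit share was 21.8% for peaks away from both and 21.3% over all peaks. Of the windows around all non-coding starts, 14.0% held it. Summit windows were richer in A and T than flanks, and no motif share was adjusted for base composition. Members with the TATA box had a median signal of 136, and 6 of the 15 strongest held it, but only 29 of the 44 had it on the strand of the gene. The homeodomain core TAATTA was in 18 members (9.68%, interval 5.84 to 14.9) and 8.33% of their flanks, against 8.96% at protein-coding starts and 5.63% of the flanks there, and 9.24% of the summits and 6.32% of the flanks over all peaks. In these larger groups the intervals of summit and flank did not overlap. Over all peaks, however, summit windows had a median of 33.7% G and C bases and flanks 43.6%. Whether the difference in TAATTA goes beyond this base composition was not tested. TAATTA stood in 5.21% of the windows around all non-coding starts. At the members the interval spans the share in their flanks, so no difference between summit and flank was detectable with 186 peaks. Mef2 sites were in 9 members (4.84%), against 7.16% at protein-coding starts, and the NK-class sequence TNAAGTG was in 17 (9.14%), against 6.37%.

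GAGA, spelled GAGAG, was in 29 members (15.6%, interval 10.7 to 21.6), against 8.71% (interval 7.61 to 9.91) at protein-coding starts and 9.40% over all peaks. The flanks of the members held it in 11.6% (interval 8.49 to 15.3), which overlaps the share at their summits, and all non-coding starts held it in 11.8%. In the comparison groups the flanks held it more often than the summits, with 14.0% at protein-coding starts and 13.5% over all peaks. The interval at the members' summits holds both of these flank shares. Members with GAGA had a median signal of 70.3, below the 95.8 of the set. GATA sites were in 19.9% of members and 19.3% at protein-coding starts, the initiator TCAGT in 20.4% and 16.3%, Pho GCCAT in 16.1% and 15.5%, the caudal and Abd-B class TTTATNG in 15.1% and 11.6%, and the E-box CANCTG in 11.8% and 14.9%. AP-1 TGANTCA was in 2 members. No motif of the list was in 30 members, and none of the 16 shares was adjusted for the number of motifs compared.

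**Figure D5:**
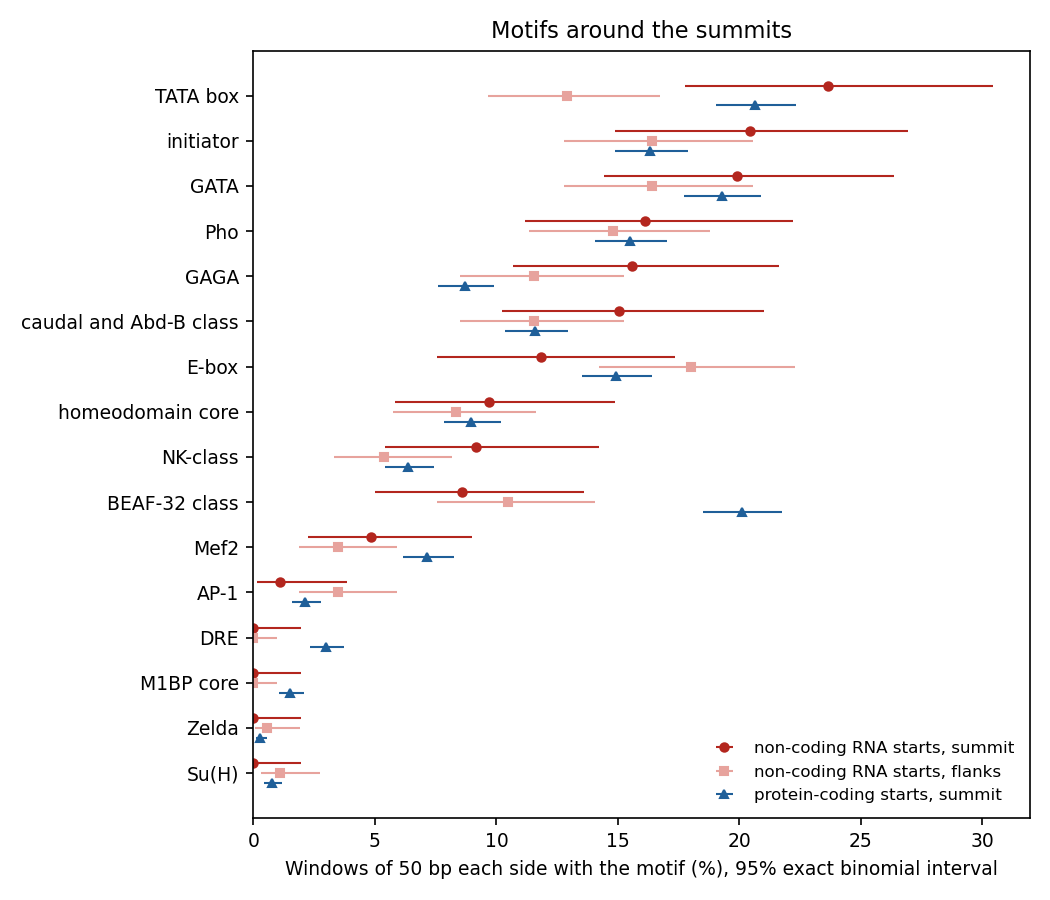
The share of windows, 50 bp to each side of a position, that hold each of the 16 motifs is plotted in percent with its 95% exact binomial interval, for the summits at non-coding RNA starts (circles), their flanks 400 bp away (squares) and the summits at protein-coding starts (triangles). BEAF-32 class, DRE and GAGA are the motifs for which the intervals of circles and triangles do not overlap.

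Peaks at non-coding starts were found on the 5 large arms. Arm 2R had 48 members, arm 2L 45, arm 3R 33, arm 3L 31 and the X chromosome 29. As a share of the lncRNA and asRNA genes of the arm, 43 of 399 on 2R (10.8%), 25 of 311 on X (8.04%), 44 of 618 on 2L (7.12%), 32 of 554 on 3R (5.78%) and 29 of 556 on 3L (5.22%) had a member peak. For protein-coding genes the share with a peak at the start ran only between 14.2% on 2R and 15.95% on 3L over the same arms. The order of the arms was therefore not the same for both kinds of gene. Arm 2R was the highest for non-coding genes. For protein-coding genes it was the lowest of the 5 large arms by a small margin, with 14.20% against 14.26% on 2L. Whether the arms differ beyond counting error was not tested. Arm 4 had 0 of 24 genes, which allows up to 12.5% by 3 counts and 14.2% by the exact interval, and arm Y 0 of 28, which allows up to 10.7% and 12.3%. The median signal was 146 on X and 84.2 on 2L, with the other 3 arms between.

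The edges of the rule left strong peaks on the outer side, some of them above the upper quartile of 182 of the members. Just inside the limit of 1000 bp were summits of lncRNA:CR43751 at 995 bp with a signal of 109 and of lncRNA:CR45693 at 948 bp with 120. Just outside were summits of lncRNA:CR45737 and lncRNA:CR43334, both at 1001 bp, with 333 and 104.5. By the condition on the nearest start, lncRNA:CR45463 was just inside with 576 bp against 577 bp to Daxx and a signal of 69.0, as was lncRNA:CR45196 with 643 bp against 650 bp to the translational repressor gene pum and 172. Another summit of lncRNA:CR45463 was just outside, with 169 bp against 168 bp to Daxx and a signal of 201, and so was one of lncRNA:CR45793 with 912 against 907 bp and 90.9. Ties were left out, and there were 6 of them, the strongest being a summit of 472 at 258 bp from both lncRNA:enrr and the neuronal gene elav. The condition removed 112 summits that had an lncRNA or asRNA start within 1000 bp.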

How the data were processed

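ChIP-seq peak lists of 1 group of 2 biological replicates were read as the authors deposited them. The lists were called by the authors with irreproducible discovery rate (IDR) filtering on build dm6, per the labels' file listings, while aligner and peak caller were not given in the sources used here. Each peak's signal value was deposited by the authors and is not scaled between lists, so values were compared by rank within a list, or per replicate as descriptions. The deposited score is the IDR score, scaled by the authors to at most 1000, and scores of 830 or more correspond to an IDR of 0.01. Further deposited columns hold the −log10 of a q-value and, in the ranked lists, the −log10 of the IDR.

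Summits were placed on transcript starts of Ensembl release 115 (BDGP6.54), and all peak and gene ends lay within the arm lengths of the RefSeq sequence of the same assembly. Genes of biotype ncRNA were kept when their symbol or their RefSeq class was lncRNA or asRNA, which left out 799 other genes of that biotype, microRNA genes among them. The distance was 1000 bp because 500 bp gave 120 peaks, fewer than the 200 the rule required. Summits within 200 bp were called shared. Motifs were searched within 50 bp of the summit and in windows centred 400 bp to both sides. Python 3.11.15, NumPy 2.4.6 and SciPy 1.17.1 were used, and the counting steps were tested on simulated data. Reads, the control library and depth were not analysed here.

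The named genes were the 15 strongest members in both replicate lists, genes with at least 2 member peaks, the listed non-coding RNAs, the 3 weakest members, those at the edges of the rule and the 3 highest for each motif shown. The genes named from the replicate ratios and the neighbouring pairs were chosen after their values were seen. The members, lists and motifs were chosen with earlier results of these data known. The closing section gives the effect of 15 alternatives, 2 of them added after the data were seen.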

Additional observations from a re-analysis of the deposited data

Results flagged for a closer look

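The thresholded list leaves out 6 ranked peaks at non-coding starts whose deposited score passed the minimum of 830, so they are in none of the counts above. The strongest had a signal of 491.1 and lay 899 bp from the start of lncRNA:CR45643, a gene that also has the second strongest member. A weaker one at the same gene had 65.4, at 382 bp. The others lay at asRNA:CR45908 with 209, at lncRNA:CR30055 with 206, at lncRNA:Hsromega with 136.4 and at lncRNA:alphagamma-element:CR32865 with 87.1. The peak of lncRNA:Hsromega, the nuclear heat shock RNA gene, stood 168 bp from its start. Over the whole arms 121 ranked peaks past that score were left out, 60 of them at protein-coding starts. The file from which the thresholded lists were further derived was not used here, and why these peaks are missing was not tested.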

How the results depend on the processing

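Of 96 values recomputed for 9 results, 59 kept within the tolerance, which was 1.5-fold for the number of peaks, the 95% interval for shares and 1 SD of the replicate lists for the medians. The number of peaks was 113 to 130 from a single replicate's list, 72 within 250 bp, 120 within 500 bp, 94 in the stronger part by signal and 298 without the nearest-start condition. The share of peaks in the set was 1.58%, 2.63% and 6.53% for 250 bp, 500 bp and no condition. The median percentile of 50.7 was 57.4 to 63.7 in a single replicate's list, 56.3 in the conservative list, 55.7 within 250 bp, 60.9 at q below 0.05 and 60.8 in the stronger part, so the middle rank belongs to the list used. The share in both replicate lists was 67.7% to 77.9% from a single list, 70.2% at q below 0.05 and 88.3% in the stronger part. A protein-coding start within 500 bp was found for 16.7% and 15% of summits within 250 and 500 bp and for 39.9% without the condition, and one within 250 or 1000 bp for 3.76% and 21.5% of members. The upstream share was 59.6% in the stronger part and kept within the interval otherwise. The median of G and C was 30.7% to 32.7% in a single list, 34.7% within 250 bp, 31.2% at q below 0.05, 30.7% in the stronger part and 35.8% in the wider window. Genes with a peak were 4.10% to 4.54% in a single list, 2.89% within 250 bp, 4.66% within 500 bp, 4.62% at q below 0.05, 3.61% in the stronger part, 10.8% without the condition and 5.53% of every Ensembl ncRNA gene. The DRE was in 0 members under each alternative except the wider window, with 1 member (0.538%), and no nearest-start condition, with 3 of 298 peaks (1.01%). The 500 bp limit and every ncRNA gene were chosen after seeing the data. Shares taken from a smaller list or a nearer limit count fewer peaks by construction. The share in both replicate lists is also raised by construction when a single list is used, since each of its peaks is already in that list. For the other shifts the cause was not tested. No paired analysis was possible because there is a single group. The number of members limits shares to intervals of several percentage points, and depth is unknown.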

Other observations

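Admitting every Ensembl ncRNA gene added 9 peaks under the same position rule. Of these, 4 lay at entries with an identifier and no symbol, and the strongest, with 273.7 and 127.8, were in both replicate lists. Among the others was a summit 451 bp from mir-275 with a signal of 79.6, one 191 bp from mir-34 with 62.3 and one 834 bp from mir-iab-8, a microRNA of the bithorax complex, with 60.2. None of these 3 was in both replicate lists. A summit 135 bp from mir-9378 had 114 and was in both. The 6 summits at equal distance from a non-coding and a protein-coding start were counted with the protein-coding starts and included a pair at lncRNA:CR46258 and ush, a cofactor of GATA factors, with 96.3 and 69.4, and one at asRNA:CR45827 and the ketone body enzyme gene SCOT with 227. The median gene length was 729 bp in the 173 genes with a member and 726 bp in the 2317 without.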
